A study of Rattus norvegicus with 35 samples.

Results

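The interleukin-1 group described here holds 7 genes: the ligands Il1a, Il1b and Il18, the receptor antagonist Il1rn, the receptor subunits Il1r1 and Il1rap, and the binding protein Il18bp. They were chosen by gene name among the non-control probes of the array, which gave 10 of 45598 probes and 7 of 34766 gene names. All 7 passed the filter on dim probes that left 24473 genes for testing, and the probe used for each was well above background on all 35 arrays. Transcripts were measured on 35 one-colour Agilent arrays, 1 per rat, in the accessory lobe of the lung of female Sprague Dawley rats taken 3 days after exposure.

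The groups were 6 p53het rats given Mitsui-7, 5 p53het rats given NM-403, 6 p53het controls, 6 wild-type (WT) rats given Mitsui-7, 6 WT rats given NM-403 and 6 WT controls. Both agents, Mitsui-7 and NM-403, are carbon nanotubes of the multi-walled type. They were instilled into the trachea weekly for 4 weeks at 0.25 mg per rat, beginning at 12 weeks of age, and the labels do not say whether this dose is that of 1 instillation or of all. Controls were given the vehicle, Pluronic, and all rats shared strain, sex, age and tissue. The p53het rats, labelled GMO, are heterozygous for p53, and the labels do not state how the allele was altered.

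Interleukin-1 alpha and beta bind the same receptor, Il1r1, which signals only after the accessory protein Il1rap has joined it. The receptor antagonist encoded by Il1rn occupies Il1r1 without recruiting Il1rap and so blocks both ligands. Interleukin-18 has its own receptor and is held in solution by the binding protein Il18bp, and interleukin-1 beta and interleukin-18 are cut to their active forms by inflammasome caspases, while interleukin-1 alpha is stored in epithelial cells and macrophages and acts as an alarm signal when cells are damaged. In the lung, particles and fibres taken up by macrophages are a known trigger of this system.

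Il1rn and Il18bp carry most of the results below, so their promoters are shown first, from 250 bases before to 50 bases after the transcription start, as given by RefSeq for GRCr8. All 7 members had an entry. Il1rn lies at chr3:27520072-27520371 on the plus strand, and Il18bp at chr1:165786906-165787205 on the minus strand. The promoter of Il1b, at chr3:137036532-137036831 on the minus strand, is shown beside them as that of a ligand that Il1rn opposes. Capitals mark matches to any of 7 motifs searched on both strands.
Il1rn: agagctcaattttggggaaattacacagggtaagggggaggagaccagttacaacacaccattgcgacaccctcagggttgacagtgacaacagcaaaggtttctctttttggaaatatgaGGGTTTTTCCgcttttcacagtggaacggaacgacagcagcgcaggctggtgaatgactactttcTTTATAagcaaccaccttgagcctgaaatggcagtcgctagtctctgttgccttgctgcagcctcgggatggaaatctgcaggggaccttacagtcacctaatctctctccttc
Il18bp: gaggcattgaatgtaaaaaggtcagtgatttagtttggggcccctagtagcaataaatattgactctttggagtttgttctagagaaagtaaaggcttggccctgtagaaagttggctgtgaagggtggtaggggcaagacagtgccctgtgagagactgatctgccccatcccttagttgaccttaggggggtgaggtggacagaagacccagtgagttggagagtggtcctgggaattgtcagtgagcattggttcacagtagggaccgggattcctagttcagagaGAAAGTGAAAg
Il1b: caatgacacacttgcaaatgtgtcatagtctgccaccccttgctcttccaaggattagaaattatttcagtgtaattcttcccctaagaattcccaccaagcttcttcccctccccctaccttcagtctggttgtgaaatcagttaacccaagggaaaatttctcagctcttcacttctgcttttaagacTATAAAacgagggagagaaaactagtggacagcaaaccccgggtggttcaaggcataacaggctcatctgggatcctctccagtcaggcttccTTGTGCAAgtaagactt
The Il1rn window holds GGGTTTTTCC, which begins 129 bases before the start and matches the NF-kB-like motif, found in 1.53% of 33469 rat promoters of this length. Its other capitals are a TATA box (TATAAA, 14.2% of promoters) read on the opposite strand. The Il18bp window holds GAAAGTGAAA at base 40 after the start, a match to the interferon response element-like motif, found in 3.92% of promoters. The Il1b window holds a TATA box and a C/EBP-like match (TTGCNNAA, 10.6% of promoters). The other motifs were AP-1-like (TGANTCA), PU.1-like (GAGGAAG) and GAS-like (TTCNNNGAA), none of them matched in these 3 windows. A match is only a string of letters in the window.

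The array probes have positions that the file headers give for rn4, not GRCr8, so these cannot be set directly against the promoter windows. Those used here are at chr3:116913748-116913807 for Il1a, chr3:116964465-116964524 for Il1b, chr8:53943005-53943064 for Il18, chr3:2613130-2613189 for Il1rn, chr9:39462421-39464677 for Il1r1, chr11:76113640-76113699 for Il1rap and chr1:159472813-159472872 for Il18bp. Il1rn, Il18 and Il1r1 are on the plus strand and the others on the minus strand.

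Levels are given as log2 signal minus the 75th percentile of the same array, so 0 is the brightness of the array's upper-quartile spot and 1 unit is a doubling. A gene is called changed where limma, fitted over all genes and arrays with a mean per group, gave an adjusted p under 0.05, and ± after a fold change is its standard error. Comparisons of the same genotype share their control rats, so their values are set side by side and not counted as separate support. The 35 arrays lay on 5 slides, and each slide held 1 or 2 arrays of each group, except that slide 1 had no WT Mitsui-7 and slide 2 no p53het NM-403 array. Residuals of arrays on the same slide resembled each other (mean r = 0.239 over 99 pairs, against -0.0563 over 411 pairs on different slides). Calls of members that change with slide as a block are therefore given both ways, as are such counts of the pathway lists against control. Between the nanotubes, list counts are given only for the receptors in p53het rats, though other lists also change with slide.

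The receptor antagonist rose with both nanotubes in both genotypes. In p53het rats, 3 of the 7 members were called with Mitsui-7, where 11.6% of all tested genes were called, and 1 of 7 with NM-403, where 1.52% were. In WT rats, 2 of 7 were called with Mitsui-7 (14% of all genes) and 1 of 7 with NM-403 (3.2%). All of these calls were rises, and Il1rn was among them each time. Of all genes, 5.29% rose and 6.28% fell with Mitsui-7 and 1.27% rose and 0.253% fell with NM-403 in p53het rats, against 8.41% and 5.56%, and 2.3% and 0.903%, in WT rats. The share of rises among the genes called with Mitsui-7 in WT rats depended on the scaling: it was 60.2% here, 47.8% after quantile normalization, 43.2% when arrays were centred on their median and 36.9% in the authors' values. The median log2 fold change of the 7 members was 0.43 and 0.16 with Mitsui-7 and NM-403 in p53het rats, and 0.13 and 0.37 in WT rats, beside -0.02, -0.08, 0.03 and 0.00 over all genes.

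**Figure D1:**
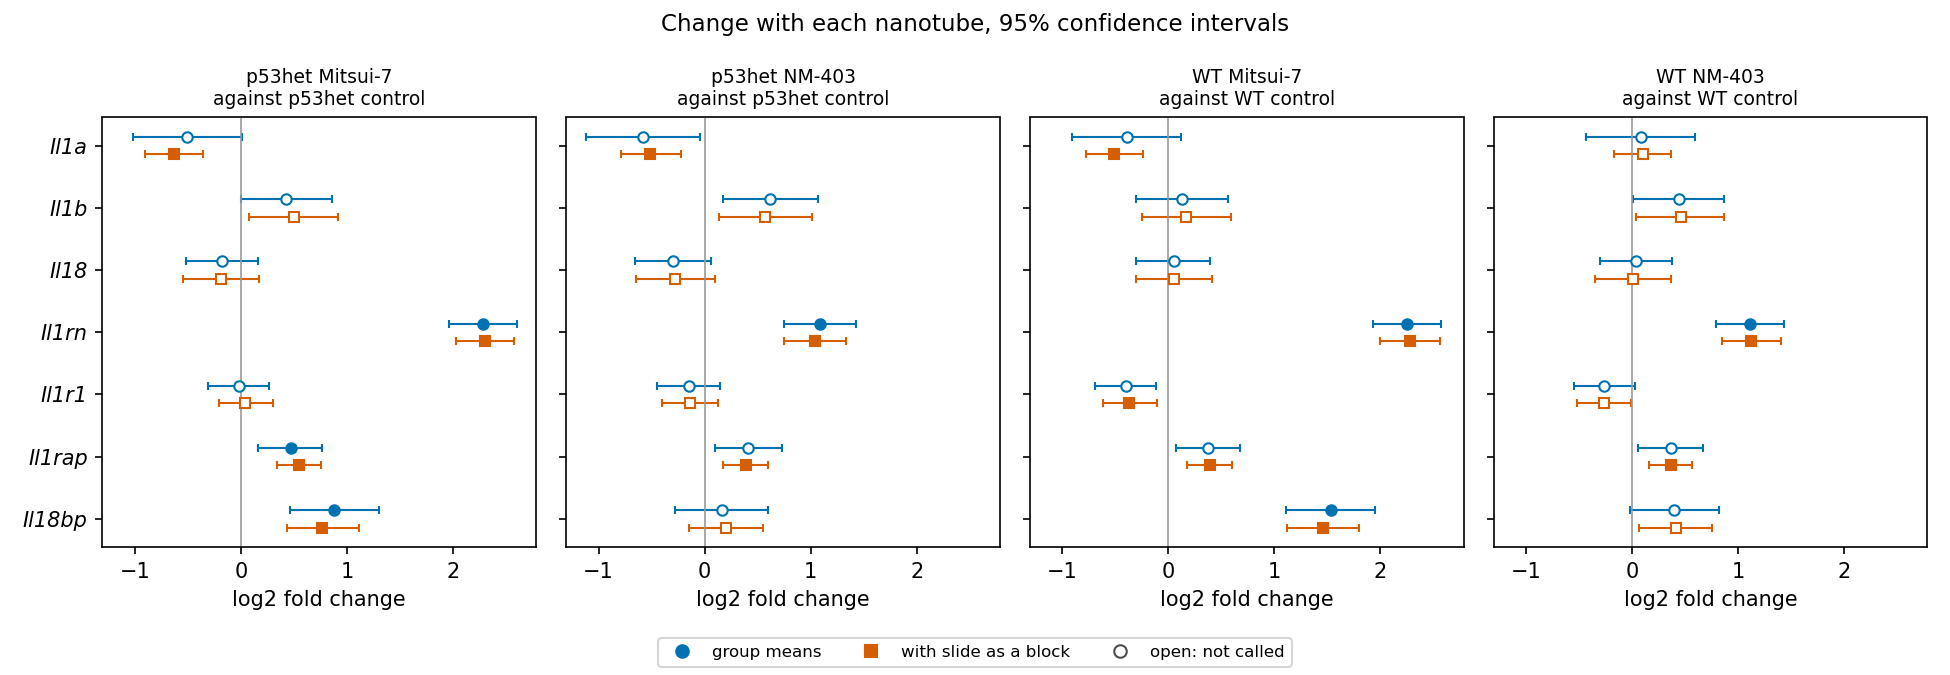
Log2 fold change of each member (horizontal axis) with each nanotube against the control of the same genotype. Circles are the fit of group means, squares the fit with slide as a block, filled symbols passed the threshold, and bars are 95% confidence intervals. Il1rn lies near 2.3 with Mitsui-7 and near 1.1 with NM-403 in both genotypes, while Il1b and Il18 were not called in any panel.

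Il1rn encodes the secreted and intracellular forms of the antagonist. With Mitsui-7 it ranged from 1.95 to 2.23 (median 1.98) in p53het rats, with NM-403 it was 0.61, 0.61, 0.76, 1.00 and 1.20 in the 5 p53het rats, and in p53het controls it ranged from -0.57 to 0.08 (median -0.19). The WT rats ranged from 1.44 to 2.64 (median 2.19) with Mitsui-7, from 0.73 to 1.09 (median 0.88) with NM-403, and from -0.54 to 0.11 (median -0.22) in controls. The 3 exposures formed separate bands that did not overlap in either genotype: every rat given Mitsui-7 lay above every rat given NM-403, and every one of these above every control. Groups without overlap were seen for 4.95% and 2% of all genes with Mitsui-7 and NM-403 in p53het rats, and for 7.41% and 2.63% in WT rats. The rise against control was 2.28 ± 0.16 with Mitsui-7 (4.86-fold, adjusted p = 3.97e-12) and 1.09 ± 0.17 with NM-403 (2.13-fold, adjusted p = 0.0002) in p53het rats, by limma. In WT rats it was 2.25 ± 0.16 with Mitsui-7 (4.76-fold, adjusted p = 4.61e-12) and 1.11 ± 0.16 with NM-403 (2.16-fold, adjusted p = 4.04e-05). The genotypes gave nearly the same values: the interaction was 0.03 ± 0.22 for Mitsui-7 (95% confidence interval -0.42 to 0.48) and -0.02 ± 0.23 for NM-403 (-0.49 to 0.44).

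The Il1rn probe was printed 10 times on each array, which shows the spot noise within an array. The SD over the 10 spots of an array had a median of 0.0684 (0.0298 to 0.162), whereas the SD between rats of a group ran from 0.108 in p53het rats given Mitsui-7 to 0.456 in WT rats given Mitsui-7, a spread that holds labelling, hybridisation and slide as well as the rats. Within slides, the difference against control lay between 1.97 and 2.65 on the 5 slides that held p53het Mitsui-7 and control rats, and between 2.08 and 2.53 on the 4 slides that held the WT pair.

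Il18bp rose with Mitsui-7. It ranged from -2.38 to -1.40 (median -1.78) in p53het rats given Mitsui-7, was -2.91, -2.68, -2.63, -2.32 and -2.03 in those given NM-403, and ranged from -3.57 to -2.21 (median -2.46) in p53het controls. The WT rats ranged from -1.75 to -0.82 (median -1.14) with Mitsui-7, from -2.61 to -2.15 (median -2.37) with NM-403, and from -3.29 to -2.49 (median -2.66) in controls. In WT rats the Mitsui-7 group stood clear of the other exposures, and in p53het rats 5 of 6 given Mitsui-7 lay above every control. The rise with Mitsui-7 was 0.88 ± 0.21 in p53het rats (1.84-fold, adjusted p = 0.00398) and 1.53 ± 0.21 in WT rats (2.89-fold, adjusted p = 2.37e-06). With NM-403 the change was 0.16 ± 0.22 (adjusted p = 0.824) in p53het rats and 0.40 ± 0.21 (adjusted p = 0.363) in WT rats, and neither was called. The interaction of genotype with Mitsui-7 was -0.65 ± 0.29 (95% confidence interval -1.24 to -0.06, adjusted p = 1), so the smaller rise in p53het rats did not pass the test across all genes.

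**Figure D2:**
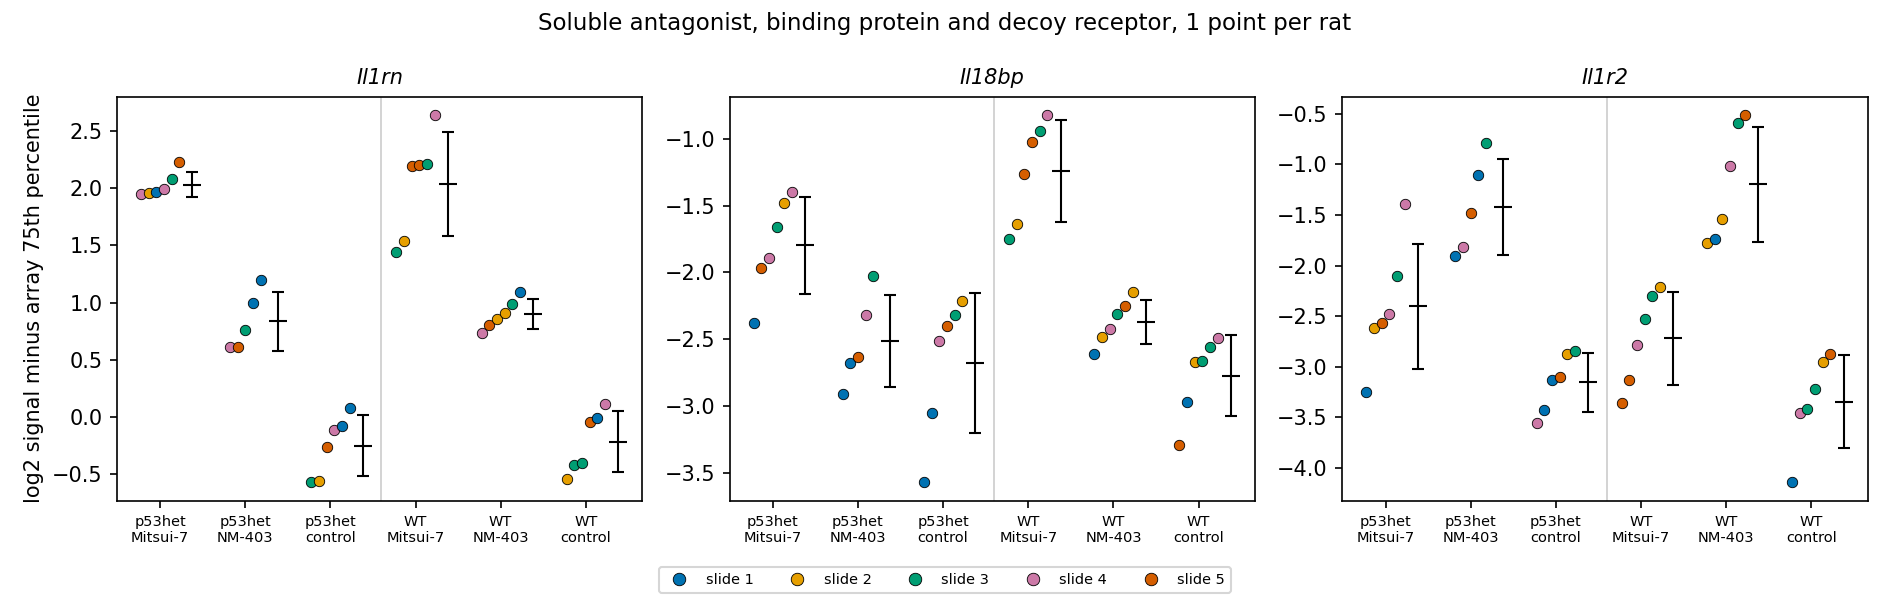
Log2 signal minus the array's 75th percentile (vertical axis) for Il1rn, Il18bp and the decoy receptor Il1r2 in each rat, coloured by slide, with the group mean and SD at the right of each group. Il1rn separates all 3 exposures, Il18bp is highest in the rats given Mitsui-7, and Il1r2 is highest in those given NM-403.

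Unlike the antagonist, no ligand was called higher with either nanotube. Il1b, the main inflammasome product, ranged from 0.07 to 0.35 in p53het rats given Mitsui-7, was -0.22, 0.13, 0.17, 0.69 and 1.27 with NM-403, and ranged from -0.89 to 0.22 in p53het controls. In WT rats it ranged from -0.30 to 0.16 with Mitsui-7, from -0.49 to 0.76 with NM-403 and from -0.61 to 0.25 in controls. The groups overlapped in every comparison. The fitted changes were 0.43 ± 0.21 with Mitsui-7 and 0.62 ± 0.22 with NM-403 in p53het rats, and 0.13 ± 0.21 and 0.44 ± 0.21 in WT rats, and no adjusted p passed the threshold, with or without slide in the fit. Every fitted change was a rise. Their 95% confidence intervals ran from 0.00 to 0.86, 0.17 to 1.07, -0.30 to 0.56 and 0.01 to 0.87, so rises up to the upper ends are not excluded. The intervals are not adjusted over genes. The log2 fold change of Il1rn exceeded that of Il1b by 1.85 with Mitsui-7 and by 0.47 with NM-403 in p53het rats, and by 2.12 and 0.67 in WT rats, as a plain difference of fold changes.

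Il18, which is made constitutively by epithelium and macrophages, ranged over all exposed rats from 0.05 to 1.05 and over all controls from 0.21 to 1.35. The fitted changes were -0.18 ± 0.17 with Mitsui-7 and -0.30 ± 0.18 with NM-403 in p53het rats, and 0.05 ± 0.17 and 0.04 ± 0.17 in WT rats, none of them called. Its level in p53het controls was 0.39 ± 0.17 above that in WT controls (adjusted p = 1).

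Il1a was the one ligand called lower under some settings, mainly with slide or scan day in the fit. It was not called without either of them when all rats were kept. It ranged from -1.16 to 0.01 (median -0.21) in p53het rats given Mitsui-7, was -1.04, -0.60, -0.21, -0.17 and -0.05 with NM-403, and ranged from -0.89 to 1.14 (median 0.40) in p53het controls. The WT rats ranged from -0.94 to -0.21 (median -0.68) with Mitsui-7, from -0.54 to 0.15 (median -0.06) with NM-403, and from -0.82 to 0.30 (median -0.14) in controls. These groups overlapped, and every group with rats on the first slide had its lowest values there: the 7 arrays of that slide averaged 0.63 below their group means, all 7 below 0 (-1.06 to -0.19). The fit of group means gave -0.51 ± 0.25 (adjusted p = 0.207) and -0.58 ± 0.26 (adjusted p = 0.366) with Mitsui-7 and NM-403 in p53het rats, and -0.39 ± 0.25 (adjusted p = 0.335) and 0.08 ± 0.25 (adjusted p = 0.934) in WT rats. With slide as a block the values were -0.63 ± 0.13 (adjusted p = 0.000957) and -0.51 ± 0.14 (adjusted p = 0.0347) in p53het rats, and -0.51 ± 0.13 (adjusted p = 0.00572) and 0.10 ± 0.13 (adjusted p = 0.731) in WT rats. The fall with NM-403 in p53het rats was not called with slide as a random block (-0.52 ± 0.17, adjusted p = 0.0755), while both falls with Mitsui-7 were. Slide 1 was the only slide of its scan day. A block of scan day thus takes up the same shift of slide 1 and is no separate check. Scan day as a block, chosen after seeing the data, gave -0.63 ± 0.13 (adjusted p = 0.000926) with Mitsui-7 in p53het rats. It gave -0.49 ± 0.14 (adjusted p = 0.0431) with NM-403 in p53het rats and -0.52 ± 0.13 (adjusted p = 0.00483) with Mitsui-7 in WT rats. Without slide or scan day, the fall with Mitsui-7 in p53het rats was called when p53het control replicate 6 was left out (-0.72 ± 0.24, adjusted p = 0.0392).

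The sign was the same on every slide where both groups lay for 3 of these comparisons. Il1a was lower on 5 of 5 slides with Mitsui-7 and 4 of 4 with NM-403 in p53het rats, and on 4 of 4 with Mitsui-7 in WT rats, whereas with NM-403 in WT rats it was higher on 4 of 5. The p53het controls, against which both p53het falls were measured, lay above WT controls for Il1a on 5 of 5 slides. That difference was 0.36 ± 0.25 without slide and 0.54 ± 0.13 with slide as a block (limma, adjusted p = 0.739), and was not called. Mitsui-7 against NM-403 within WT rats gave -0.61 ± 0.13 with slide as a block (adjusted p = 0.00465), and -0.47 ± 0.25 without (adjusted p = 0.426). The interaction of genotype with NM-403 was -0.66 ± 0.36 (adjusted p = 0.983), so the different signs with NM-403 in p53het and WT rats were not shown to differ. With slide in the fit the background was also wider: 22.5% and 3.92% of all genes were called with Mitsui-7 and NM-403 in p53het rats, and 22.2% and 7.74% in WT rats, beside 4, 3, 5 and 2 of the 7 members.

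**Figure D3:**
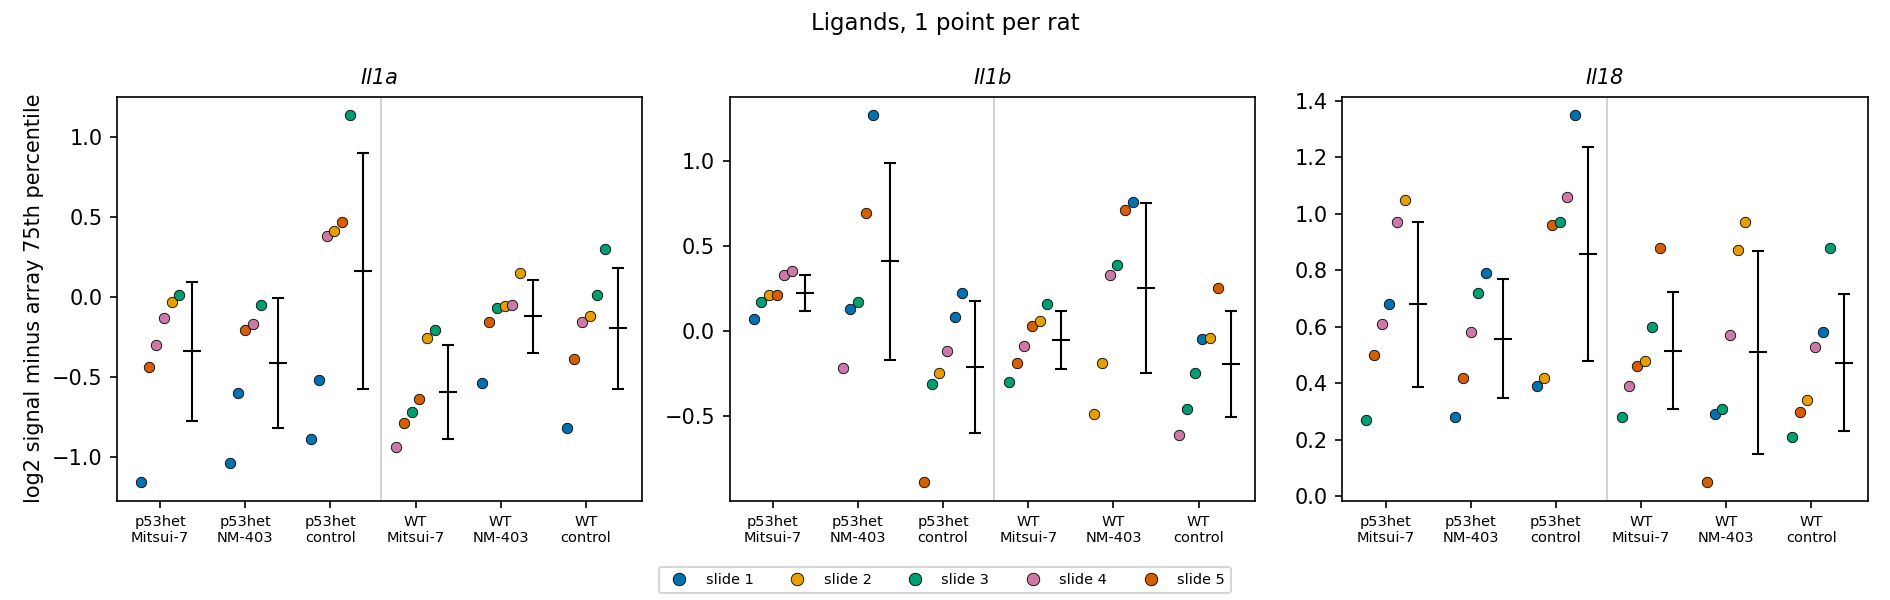
Log2 signal minus the array's 75th percentile (vertical axis) for the 3 ligands in each rat, coloured by slide, with the group mean and SD at the right of each group. Groups overlap for all 3 genes, and the rats on slide 1 lie lowest for Il1a in each group that has any.

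Of the receptor subunits, Il1rap was called higher with Mitsui-7 in p53het rats, and Il1r1 was not called in any comparison unless slide or another setting was changed. Il1rap was read by a probe for transcript variant 1, and the probe for variant 2 was well above background on only 7 arrays, so no fold is given for it. The first probe ranged from -3.73 to -3.03 (median -3.37) in p53het rats given Mitsui-7, was -3.86, -3.49, -3.35, -3.29 and -3.00 with NM-403, and ranged from -4.19 to -3.54 (median -3.80) in p53het controls. In WT rats it ranged from -3.82 to -3.06 (median -3.41) with Mitsui-7, from -3.68 to -3.20 (median -3.45) with NM-403, and from -4.15 to -3.52 (median -3.75) in controls. Exposed and control groups overlapped in each comparison. The rise was 0.47 ± 0.15 with Mitsui-7 (1.38-fold, adjusted p = 0.0359) and 0.41 ± 0.16 with NM-403 (adjusted p = 0.227) in p53het rats, and 0.37 ± 0.15 with each nanotube (adjusted p = 0.0893 for Mitsui-7 and 0.204 for NM-403) in WT rats. With slide as a block all 4 were called: 0.55 ± 0.10 (adjusted p = 0.00025) and 0.39 ± 0.10 (0.0328) in p53het rats, and 0.39 ± 0.10 (0.00578) and 0.37 ± 0.10 (0.0236) in WT rats. All 4 were also called with slide as a random block (adjusted p of 0.000559 and 0.0411 in p53het rats, 0.00951 and 0.0331 in WT rats). The call made without slide was lost under 12 of 23 alternatives, among them 8 that leave out 1 rat.

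Il1r1 was read by 3 probes. The brightest ranged from -3.55 to -3.14 in p53het rats given Mitsui-7, was -3.77, -3.65, -3.46, -3.38 and -3.19 with NM-403, and ranged from -3.57 to -3.10 in p53het controls. In WT rats it ranged from -3.86 to -2.97 with Mitsui-7, from -3.88 to -3.10 with NM-403 and from -3.45 to -2.85 in controls. The changes were -0.02 ± 0.14 and -0.15 ± 0.15 with Mitsui-7 and NM-403 in p53het rats, and -0.40 ± 0.14 (adjusted p = 0.0519) and -0.26 ± 0.14 (adjusted p = 0.413) in WT rats. With Mitsui-7 in WT rats the value fell just short of the threshold, and it passed with slide as a block (-0.37 ± 0.12, adjusted p = 0.0329). It also passed after quantile normalization (-0.46 ± 0.14, adjusted p = 0.0282) and with arrays centred on their median (-0.48 ± 0.15, adjusted p = 0.0256). Of 24 settings, the main fit included, 9 called it. The other probes gave -0.25 ± 0.20 and -0.07 ± 0.16 there, and neither was called; differences between the probes were not tested.

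Mitsui-7 and NM-403 were also set directly against each other. Il1rn was higher with Mitsui-7 by 1.19 ± 0.17 in p53het rats (2.28-fold, adjusted p = 2.48e-05) and by 1.14 ± 0.16 in WT rats (2.20-fold, adjusted p = 1.31e-05). Il18bp was higher by 1.13 ± 0.21 in WT rats (2.19-fold, adjusted p = 0.000682), and the 0.72 ± 0.22 in p53het rats was not called (adjusted p = 0.107). It was called there without p53het Mitsui-7 replicate 3 (adjusted p = 0.0401). These were 1 and 2 of 7 members in p53het and WT rats, where 1.36% and 3.32% of all genes were called (1.09% higher and 0.278% lower in p53het rats, 2.77% and 0.552% in WT rats). The share of rises among those called in WT rats was 83.4%, against 72.6% after quantile normalization, 66.4% with the median and 62.9% in the authors' values. The same members were those without overlap between the nanotubes, as were 2.05% and 2.41% of all genes. With slide as a block 1 and 3 members were called, beside 2.07% and 6.28% of genes. The doses of the nanotubes were equal by mass. Between p53het controls and WT controls, 0 of 7 members and 0% of genes were called by limma (484 genes had an unadjusted p under 0.05), 0 members and 0.094% of genes had no overlap, and the interactions gave 0 of 7 and 0% as well (730 unadjusted for Mitsui-7, 413 for NM-403). With slide as a random block the interaction with Mitsui-7 gave 2 genes, neither of them a member.

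Other genes of the pathway were taken from lists, whose counts stand beside the shares of all genes called, given above for each comparison and for both fits. Il36a, Il36g, Il1f10, Il1rl2, Il18rap, Il1rapl1, Nlrp6, Il6 and Ifng were on the array but did not pass the filter on dim probes, so no count below includes them. Of 5 tested receptors outside the group, the one called with NM-403 in either genotype was Il1r2, the decoy that binds interleukin-1 without signalling. Il1r2 was -1.90, -1.82, -1.48, -1.10 and -0.79 in p53het rats given NM-403, and ranged from -3.25 to -1.39 with Mitsui-7 and from -3.56 to -2.84 in p53het controls. In WT rats it ranged from -3.36 to -2.21 with Mitsui-7, from -1.78 to -0.51 with NM-403 and from -4.14 to -2.87 in controls. All rats given NM-403 lay above all controls. The rise with NM-403 was 1.74 ± 0.29 in p53het rats (3.33-fold, adjusted p = 0.000605) and 2.15 ± 0.28 in WT rats (4.43-fold, adjusted p = 1.09e-05). With Mitsui-7 it was 0.75 ± 0.28 (adjusted p = 0.0727) and 0.63 ± 0.28 (adjusted p = 0.132), and Mitsui-7 against NM-403 in WT rats gave -1.52 ± 0.28 (adjusted p = 0.000629). So the decoy receptor had the order of nanotubes opposite to that of Il1rn and Il18bp in WT rats. In p53het rats the mean of Il1r2 was also lower with Mitsui-7 (-2.40) than with NM-403 (-1.42), but it was not called there without slide. When slide was a block, 1 of the 5 receptors was called lower in that comparison. Il1rapl2 was called higher with Mitsui-7 in WT rats (2.84 ± 0.85, adjusted p = 0.0217), but it was well above background on 1 of 6 WT control arrays. Sigirr, an inhibitory receptor, was called lower in the same comparison when slide was a block (-0.24 ± 0.09, adjusted p = 0.0445); it was picked out after its values were seen.

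Of 3 tested ligands outside the group, Il36b, an interleukin-36 that acts on epithelium, rose with Mitsui-7 in WT rats by 1.49 ± 0.27 (2.80-fold, adjusted p = 0.000199). In p53het rats the Il36b means were -4.37 with Mitsui-7 and -4.95 in controls, and this change was not called. Il33, an alarm signal held in the nuclei of alveolar and endothelial cells, fell with Mitsui-7 in p53het rats by 0.40 on the log2 scale (SE 0.10, adjusted p = 0.00461), and all 6 lay below all controls. Its values in the other comparisons were -0.36 ± 0.10 with NM-403 in p53het rats (adjusted p = 0.0626), and -0.27 ± 0.10 with Mitsui-7 (0.0565) and -0.24 ± 0.10 with NM-403 (0.197) in WT rats. It was also called lower, with slide as a block, with NM-403 in p53het rats (adjusted p = 0.00997) and with Mitsui-7 in WT rats (0.0174). Of 14 genes of processing and release, Aim2, an inflammasome sensor of DNA, rose by 1.23 ± 0.30 with Mitsui-7 in WT rats (adjusted p = 0.00518), and Pycard, the inflammasome adaptor, by 0.65 ± 0.16 (adjusted p = 0.00552). Neither was called with Mitsui-7 in p53het rats. There the Aim2 means were -4.88 with Mitsui-7 and -4.78 in controls, and the Pycard means -0.08 and -0.36. Capn2, the calpain subunit, fell with Mitsui-7 in both genotypes and with NM-403 in WT rats. Casp1 and Nlrp3 were not called against control, except that Nlrp3 was called higher with Mitsui-7 in WT rats with slide as a block (0.44 ± 0.14, adjusted p = 0.0213). The list counted 0 higher and 1 lower with Mitsui-7 and none with NM-403 in p53het rats, and 2 higher and 1 lower, then 0 higher and 1 lower, in WT rats; its median change lay between 0.00 and 0.09. The list counted, with slide as a block, 0 higher and 1 lower with each nanotube in p53het rats, and 4 higher and 1 lower with Mitsui-7 and 1 and 1 with NM-403 in WT rats.

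Of 25 signalling genes, Irak3, which restrains the receptor complex, rose with Mitsui-7 by 0.45 ± 0.11 in p53het rats and by 0.38 ± 0.11 in WT rats. Rela, an NF-kB subunit, fell by 0.35 and 0.30 on the log2 scale in the same comparisons, Mapk8 fell in p53het rats, and Rel, another NF-kB subunit, rose by 0.74 ± 0.13 in WT rats. These were 1 higher and 2 lower of 25 in p53het rats, and 2 higher and 1 lower in WT rats, with 0 called for NM-403 in either genotype (limma, adjusted p under 0.05). The share of the list called with Mitsui-7 was thus near that of all genes, 11.6% in p53het rats and 14% in WT rats. With slide as a block the counts were 2 higher and 4 lower with Mitsui-7 and 0 and 1 with NM-403 in p53het rats, and the counts in WT rats were the same as without slide.

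Of 14 tested genes known to be induced by interleukin-1 or interleukin-18, 5 rose and 0 fell with Mitsui-7 and 2 rose and 0 fell with NM-403 in p53het rats, while in WT rats 6 rose and 4 fell with Mitsui-7 and 2 rose and 0 fell with NM-403. The median change of the list was 0.28, 0.03, 0.26 and 0.22 in that order of comparisons. The counts with slide as a block were 6 up and 1 down with Mitsui-7 in p53het rats and 6 up and 3 down in WT rats, and those with NM-403 were the same. Ccl2, which draws monocytes, rose in all 4: by 2.39 ± 0.31 and 2.01 ± 0.32 with Mitsui-7 and NM-403 in p53het rats, and by 1.83 ± 0.31 and 1.62 ± 0.31 in WT rats. Lcn2, an iron-binding protein of neutrophils and epithelium, rose with NM-403 by 1.60 ± 0.30 in p53het rats and 1.52 ± 0.28 in WT rats. With Mitsui-7 in p53het rats it was 0.59 ± 0.28 (adjusted p = 0.191), and it was called there with slide as a block (0.75 ± 0.21, adjusted p = 0.0101). Mmp3, a matrix protease, was not well above background on any control array, and was at least 4.55-fold higher with Mitsui-7 in p53het rats (means -5.52 and -8.72) and at least 7.42-fold higher in WT rats (means -4.79 and -9.03). The bound sets each dim array at its lowest value well above background; Mmp3 could pass the filter through these rats alone. Nos2 rose in WT rats given Mitsui-7 (1.24 ± 0.28), but was well above background on 1 of 6 WT controls. The 4 that fell with Mitsui-7 in WT rats, named after their values were seen, were the chemokines Cxcl1 and Ccl20, the growth factor Csf2 and the adhesion molecule Icam1, by 0.77, 0.70, 0.32 and 0.34 on the log2 scale. Ptgs2, the inducible cyclooxygenase, also named after its values were seen, rose with Mitsui-7 by 0.55 ± 0.17 in p53het rats and 0.91 ± 0.17 in WT rats.

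**Figure D4:**
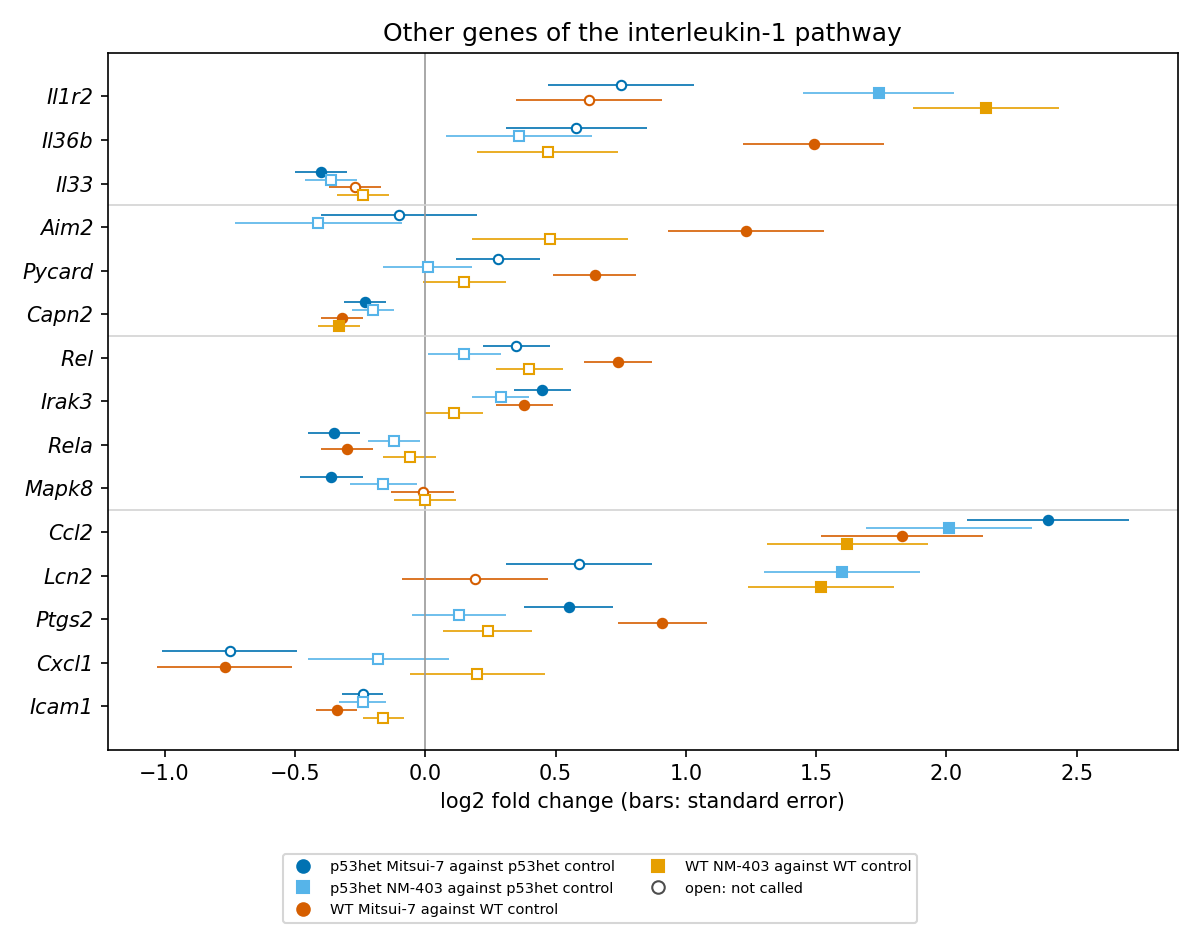
Log2 fold change (horizontal axis, bars are standard errors) of other receptors and ligands, processing genes, signalling genes and induced genes, from top to bottom, with each nanotube against the control of the same genotype. Filled symbols passed the threshold. Ccl2 is filled in all 4 comparisons, whereas Il1r2 and Lcn2 are filled for NM-403 only in this fit without slide.

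All tested markers of alveolar type 1 and type 2 cells, endothelium and fibroblasts were well above background on every array, as the labelled tissue would have them. In whole lobe RNA, fewer cells of a type and less RNA per cell cannot be told apart. The marker counts stand beside shares of all genes called of 11.6% with Mitsui-7 and 1.52% with NM-403 in p53het rats, and 14% and 3.2% in WT rats. Of 12 macrophage and monocyte markers, 5 rose with Mitsui-7 and 0 with NM-403 in p53het rats, and 7 and 2 in WT rats, with none lower. Itgam rose most, by 2.07 and 2.35 on the log2 scale with Mitsui-7 in p53het and WT rats. The summed level of that list was 6.69 to 7.05 with Mitsui-7, 6.52 to 6.97 with NM-403 and 6.41 to 7.23 in controls of p53het rats, and 6.50 to 6.91, 6.51 to 6.97 and 6.42 to 6.60 in WT rats. Summed levels are the log2 of a list's summed linear signals, so its brightest genes largely set them. Here Lyz2 alone averaged 6.59 in p53het controls and 6.41 in WT controls, beside mean sums of 6.70 and 6.52. S100a9 and S100a8 were the brightest neutrophil markers, and the collagens the brightest fibroblast markers. Of 7 dendritic cell markers, 2 rose and 1 fell with Mitsui-7 in p53het rats and 4 rose in WT rats, while 1 rose with NM-403 in each genotype. Their summed level was 0.78 to 1.22 with Mitsui-7, 0.70 to 0.92 with NM-403 and 0.49 to 0.76 in controls of p53het rats, and 0.79 to 1.42, 0.60 to 0.81 and 0.47 to 0.61 in WT rats. Of 9 neutrophil markers, 1 rose with NM-403 in p53het rats and 3 in WT rats, and the summed level was 3.13 to 4.24 with NM-403 and 1.83 to 2.83 in controls of p53het rats, and 3.12 to 4.53 and 1.48 to 2.98 in WT rats. With Mitsui-7 the neutrophil sum was 1.36 to 2.76 in p53het rats and 0.76 to 2.03 in WT rats, and Fpr1 fell. One macrophage marker, Marco, was not well above background on any WT control array, and one neutrophil marker, Ngp, on none of p53het rats given Mitsui-7. Some macrophage and dendritic markers thus moved with Il1rn and Il18bp, and some neutrophil markers with Il1r2 and Lcn2, and their part in these results was not tested. Of 6 endothelial markers, 5 fell with Mitsui-7 in each genotype and 0 with NM-403 by limma, and the summed level was 4.66 to 5.18 with Mitsui-7, 5.13 to 5.35 with NM-403 and 5.42 to 5.62 in controls of p53het rats, and 4.48 to 5.09, 5.00 to 5.37 and 5.34 to 5.61 in WT rats. Alveolar type 1 markers also fell, 3 of 6 with Mitsui-7 and 2 with NM-403 in p53het rats, and 4 and 1 in WT rats. Their summed level was 6.69 to 6.89 with Mitsui-7, 6.68 to 7.01 with NM-403 and 6.89 to 7.34 in controls of p53het rats, and 6.71 to 6.89, 6.72 to 7.01 and 6.97 to 7.10 in WT rats. Of 6 fibroblast markers, 2 rose and 1 fell with Mitsui-7 in p53het rats and 3 rose and 1 fell in WT rats, with a summed level of 4.93 to 5.36 with Mitsui-7, 4.49 to 4.75 with NM-403 and 4.52 to 4.96 in controls of p53het rats, and 5.05 to 5.39, 4.47 to 4.89 and 4.67 to 4.93 in WT rats. No alveolar type 2 marker of 7 was called in any of these comparisons. The part of these lists in the changes of Il33 and Icam1 was not tested.

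Over the 35 arrays, Il1rn and Il18bp correlated at r = 0.76, and at -0.03 once group means were removed. The second value pools all 6 groups and still holds slide, so it does not show how the genes varied among rats of any single group. Il1a and Il1rn gave r = -0.52 over all arrays and -0.62 within groups, and Il1a and Il18bp gave -0.07 and 0.58. The arrays share slides, and slide 1 was low for Il1a and Il18bp (means 0.63 and 0.40 below the group means) and high for Il1rn and Il1rap. Among 14717 genes with a symbol, those most like Il1rn were Mt3 (r = 0.959), Mmp12 (0.956) and Bpifb1 (0.952), over 35 arrays in 6 groups. Mt3, a metallothionein, rose by 5.77 ± 0.33 with Mitsui-7 and 1.69 ± 0.35 with NM-403 in p53het rats, and by 5.63 ± 0.33 and 2.29 ± 0.33 in WT rats. Mmp12, the macrophage elastase, rose by 3.68 ± 0.26 and 2.07 ± 0.27 in p53het rats, and by 4.16 ± 0.26 and 2.44 ± 0.26 in WT rats. Those most like Il18bp were Slamf6 (0.952), Cd84 (0.949) and the potassium channel gene Kcnk13 (0.945), the first and second being receptors of one family on immune cells.

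For Il1rap the most alike were Foxq1 (0.9) and Cib1 (0.896), and for Il1a they were Jcad (0.848), Rmc1 (0.844) and Kansl2 (0.840). The values were lower for Il1b, with Ifit1bl (0.830), Manf (0.790) and Zc3h12a (0.770), and for Il1r1, with Rufy2 (0.718), Sugp2 (0.708) and Nbl1 (0.698). They were lowest for Il18, with Cxcr1 (0.635), Naaa (0.610) and Ctsf (0.607). Zc3h12a, an RNase that degrades cytokine transcripts, was called higher with NM-403 in WT rats (0.88 ± 0.19, adjusted p = 0.00454).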

How the data were processed

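RNA from 35 rats was hybridised to 1 Cy3 array each (100 ng of RNA, integrity number above 6.90, per the labels). Deposited scanner files hold spot intensity as background-corrected processed signal, for which the submitters' processing notes name Agilent Feature Extraction, version 12.0.1.1. The authors' deposited matrix holds log2 values of 11555 probes, centred per gene, with column medians from -0.0827 to 0.0691; its filter is not stated, and it served as an alternative.

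From each array's 62976 spots the 4259 control spots were left out, log2 intensities were set relative to the array's 75th percentile (9.63 to 11.1 on the log2 scale), outlier spots (221 to 699 per array) were set to missing, and spots of a probe were averaged. Between 66.1% and 86.4% of spots were well above background and 0 were saturated. A gene is its brightest probe, kept if 5 or more arrays had it well above background and 3 or more of each group had a value. Fits used R 4.3.3, limma 3.58.1 (lmFit, eBayes) and the package data.table (1.17.8), with Benjamini-Hochberg adjustment over 24473 genes and a threshold of 0.05. Every adjusted p comes from limma. The number of arrays limits the precision.

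Slide and scan day were read from the file headers. Replicate numbers did not pair the arrays (mean r = 0.0297 over 85 pairs, -0.574 to 0.692). The members and lists were chosen with earlier results of these data known. The genes named are the members, the 3 symbols most correlated with each, and up to 4 called genes of each list by size of change; some genes that this rule names are not reported here. Promoters are RefSeq entries for GRCr8. Figures were drawn with matplotlib 3.10.9. Alternatives were other scalings, normexp, the authors' values, filters, probe averages, blocks, fewer groups and leaving out each rat. The method was tested on simulated data that held no slide effect, so that test does not bear on the choice of block.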

Additional observations from a re-analysis of the deposited data

Results flagged for a closer look

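Of 42 combinations of member and group checked, 1 held a rat far from the others. The brightest Il1r1 probe read -3.88 in WT NM-403 replicate 1, against -3.33 in the next lowest rat of that group, a gap of 0.709 of the group's range. Chance marks about 1 in 20 such groups.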

How the results depend on the processing

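Il1rn kept its direction and its side of the threshold under every alternative run in all 6 comparisons of exposures. Il18bp did so with Mitsui-7 in both genotypes, where log2 fold changes ranged from 0.70 to 1.00 in p53het rats and from 1.32 to 1.63 in WT rats. No member changed direction past the threshold. Over single members, 1599 values under an alternative stayed on the same side, 30 passed the threshold newly and 12 no longer passed; these 12 are all Il1rap with Mitsui-7 in p53het rats. Slide as a fixed block raised the members called to 5 of 7 with Mitsui-7 and 2 with NM-403 in WT rats and to 3 with NM-403 in p53het rats; slide as a random block gave 5, 2 and 2, and scan day, an alternative chosen after seeing the data, gave 5 in WT rats with Mitsui-7 and 2 in p53het rats with NM-403. Leaving out 1 rat gave 2 to 4 members with Mitsui-7 in either genotype (4 without WT Mitsui-7 replicate 1), 1 to 2 for Mitsui-7 against NM-403 in p53het rats, and the same count in the other comparisons: 2 for Mitsui-7 against NM-403 in WT rats and 1 with NM-403 in each genotype. With the replicate number as a block the counts were 3 and 1 in p53het rats and 2 and 1 in WT rats, and it changed no member's call.

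Counts over all genes moved more. Slide as a fixed block gave 5518 and 960 genes with Mitsui-7 and NM-403 in p53het rats (2832 and 373 without) and 5432 and 1893 in WT rats (3420 and 784 without), and 507 and 1538 for Mitsui-7 against NM-403 (334 and 813 without). The random block gave 5144, 981, 5421, 1902, 581 and 1542 in that order, and scan day gave 4587, 664, 1709 with NM-403 in WT rats and 1320 between nanotubes in WT rats. Normexp gave 1802 and 191 in p53het rats and 442 between nanotubes in WT rats, fits of only the groups compared 1715, 145 and 499, and the authors' values, with 9803 genes, 1408, 163, 1744, 491, 135 and 315. With NM-403 in p53het rats, leaving out replicate 1, 2, 3 or 5 gave 618, 227, 234 or 231, and without WT NM-403 replicate 6 the WT count was 459. The interaction of genotype with Mitsui-7, with 0 genes otherwise, gave 2 with the random block and 1 without p53het Mitsui-7 replicate 6. Causes were not tested, except that the authors' values hold fewer genes. Signal over background limited only the second Il1rap probe among the members.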
